A study of Mus musculus with 44 samples.

Results

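The LI-Capture-C libraries made from 200 ng and from 50 ng of 3C library were compared, 3 libraries per input and 6 of the 44 samples analysed in the series. The members were chosen by their labels, which give the protocol and the DNA input. All 6 libraries came from erythroid cells selected for the surface marker Ter-119. The cells were taken from spleen, of female mice of the strain C57BL/6 that had received phenylhydrazine, an agent that destroys red cells and so fills the spleen with erythroid precursors. The cells had been fixed with formaldehyde before 3C. The groups therefore share strain, sex, tissue, treatment and protocol, and differ in the input. The labels do not give the age of the mice. The 3 libraries of an input are called aliquots in one place of the study and biological replicates in another, so that p-values measure the spread between these libraries, which may be technical. The labels name no sequencing run or other batch, and whether the inputs were handled together was not tested.

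Chromosome conformation capture (3C) joins DNA fragments that lay close to each other in the fixed nucleus. The enzyme DpnII cuts the chromatin, ligation joins neighbouring ends, and Capture-C enriches the joints with a chosen fragment, the viewpoint. In LI-Capture-C the 3C DNA is sonicated before adaptors are ligated to it, and in Tag-Capture-C a transposase cuts the DNA and attaches adaptors at once. An interaction is in cis when the joined fragment lies on the chromosome of the viewpoint, and in trans when it lies on another chromosome. Trans interactions include random ligation between nuclei, so their share is commonly read as a measure of library quality. Cis interactions become rarer with distance, and enhancers in contact with a promoter stand out as local peaks above this decay.

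The viewpoints were the promoters of 3 genes active in erythroid cells. α-globin and β-globin are the subunits of adult haemoglobin, and Slc25a37 encodes mitoferrin-1, which carries iron into mitochondria for haem synthesis. The α-globin enhancers lie at lower coordinates than the genes, and the β-globin locus control region lies at higher coordinates than the adult β genes. In mm9 coordinates of the deposited tables, the captured α-globin fragments lie in unlisted gaps at chr11:32182317-32184781 and chr11:32194990-32197598, 12.7 kb apart, those of β-globin at chr7:110961283-110963273 and chr7:110975292-110977138, 13.9 kb apart, and that of Slc25a37 at chr14:69902161-69904393. The interactions of both promoters of a globin pair are pooled in the tables. The labels name the genes Hba-a1 and 2, Hbb-b1 and 2, and Slc25A37. In RefSeq (GRCm38.p6), Hba-a1 and Hba-a2 start 12.8 kb apart, and the adult β-globin genes placed at this locus are named Hbb-bs and Hbb-bt and start 14.0 kb apart. The bases before the starts of Hba-a1 and of both β-globin genes are shown because the genes of a pair are counted as 1 viewpoint. Capitals mark GATC, the site cut by DpnII.
Hba-a1 (chr11:32283422-32283671, + strand): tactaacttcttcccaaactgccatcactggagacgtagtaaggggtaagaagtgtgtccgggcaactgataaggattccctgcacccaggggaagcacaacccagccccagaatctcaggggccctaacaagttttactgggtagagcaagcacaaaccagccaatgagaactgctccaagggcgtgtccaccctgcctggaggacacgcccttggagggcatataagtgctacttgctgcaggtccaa
Hbb-bs (chr7:103827929-103828178, - strand): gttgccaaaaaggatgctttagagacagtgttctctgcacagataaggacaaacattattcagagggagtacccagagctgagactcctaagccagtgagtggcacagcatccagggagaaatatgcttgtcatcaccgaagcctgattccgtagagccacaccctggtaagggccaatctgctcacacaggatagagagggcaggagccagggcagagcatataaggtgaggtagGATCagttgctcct
Hbb-bt (chr7:103813924-103814173, - strand): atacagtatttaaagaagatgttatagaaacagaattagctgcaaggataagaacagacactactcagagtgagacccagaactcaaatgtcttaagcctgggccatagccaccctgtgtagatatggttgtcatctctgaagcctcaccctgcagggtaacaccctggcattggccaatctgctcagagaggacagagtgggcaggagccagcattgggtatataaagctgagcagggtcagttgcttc
Over 250 bases before the start, Hba-a1 and Hba-a2 align with 247 identical bases, 0 mismatches and 6 gap bases. Hbb-bs and Hbb-bt align with 185 identical bases, 54 mismatches and 22 gap bases, or 77.4% of aligned bases. Hba-a1 and Hbb-bs, aligned in the same way, have 142 identical bases, 44 mismatches and 128 gap bases. Their 76.3% leaves out the gap bases and so covers fewer aligned bases. GATC stands in 1 of these 4 windows, that of Hbb-bs, and in 41.9% of the 32851 promoter windows of the table. Slc25a37 is named only.

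The 200 ng libraries held 24942, 25919 and 33512 unique interactions at the α-globin viewpoint, and the 50 ng libraries held 6420, 5692 and 5366. At β-globin the ranges were 22146 to 28379 and 4564 to 4983, and at Slc25a37 8121 to 10761 and 1900 to 2111. The reads do not tell the promoters of a globin pair apart. The paper nevertheless lists unique interactions for each promoter, with close numbers for the α-globin pair. The sources used here do not state whether an interaction can enter a pooled table more than once. The totals may therefore hold interactions counted more than once, as may all counts tested here. As deposited, of the counted α-globin fragments in trans or beyond 1 Mb, 41.7% ± 1.11 at 200 ng had a count of 2. A count of 1 was held by 30.6% ± 1.66, against 27.7% ± 1.02 and 49.2% ± 1.51 at 50 ng. At 200 ng, fragments with a count of 4 came to 2.16, 2.09 and 2.49 for each with a count of 3 at α-globin. The values were 2.11, 1.73 and 2.05 at β-globin, and 0.192, 0.268 and 0.165 at Slc25a37, which has 1 promoter fragment. The cause of these patterns was not tested. The mean total at 200 ng was 4.83, 5.03 and 4.57 times that at 50 ng, at α-globin, β-globin and Slc25a37. For every comparison at equal depth, each library was thinned at random to the lowest 50 ng total of its viewpoint, 5366, 4564 and 1900 interactions, and values were averaged over 100 draws. With 3 libraries against 3, the exact permutation test cannot give p below 0.1.

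Fewer interactions were in cis at 50 ng than at 200 ng, at every viewpoint, with the depth made equal. At α-globin, 65.6, 65.2 and 65.0% of interactions were in cis in the 200 ng libraries, against 60.8, 62.1 and 61.8% in the 50 ng libraries. At β-globin, the 200 ng libraries had 65.3, 64.7 and 63.7% and the 50 ng libraries 55.5, 57.8 and 55.7%. At Slc25a37, the 200 ng libraries had 68.5, 68.7 and 68.0% and the 50 ng libraries 60.1, 60.1 and 61.4%. The groups did not overlap at any viewpoint, and all 3 libraries of 50 ng lay below all 3 of 200 ng each time. The difference was -3.71 ± 0.43 percentage points (SE, n = 3 and 3) at α-globin, -8.25 ± 0.86 at β-globin and -7.87 ± 0.49 at Slc25a37 (exact two-sided permutation p = 0.1 each, the smallest possible, also after Benjamini-Hochberg adjustment over the 3 viewpoints). Without thinning the differences were -3.72, -8.26 and -7.89. Random thinning leaves the expected share in cis unchanged, so that it could not by itself alter these differences. With each fragment counted once, as deposited and at unequal depth, the percentage of fragments in cis was 47.7% ± 0.27 and 44.9% ± 0.77 at α-globin, 50.0% ± 0.98 and 43.4% ± 0.51 at β-globin, and 54.2% ± 1.10 and 49.0% ± 0.76 at Slc25a37.

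Values for the input between them and for the other protocol were set beside these. At 100 ng, the LI-Capture-C libraries had 65.8% ± 0.16 (SD, n = 3) in cis at α-globin, 63.0% ± 0.47 at β-globin and 67.1% ± 0.21 at Slc25a37, at the same depth. The 3 libraries of 100 ng lay above the 50 ng libraries at every viewpoint. They lay above the 200 ng libraries at α-globin and below them at β-globin and Slc25a37. In Tag-Capture-C, the same step from 200 ng to 50 ng changed the cis percentage from 66.5% ± 0.30 to 67.8% ± 0.64 at α-globin, from 63.3% ± 0.27 to 62.1% ± 1.11 at β-globin and from 67.9% ± 0.75 to 67.5% ± 0.41 at Slc25a37. The LI-Capture-C difference minus the Tag-Capture-C difference was -4.96, -7.09 and -7.42 percentage points. Exchanging the protocol labels within each input (400 assignments, exact two-sided test) gave p = 0.1, 0.005 and 0.02, and 0.1, 0.015 and 0.03 after adjustment over the viewpoints. With differences taken within replicate numbers, no value passed (exact p = 0.1 each, the smallest possible), and without the Tag-Capture-C 200 ng replicate 3 the value at Slc25a37 was -7.06 with exact adjusted p = 0.0525.

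**Figure D1:**
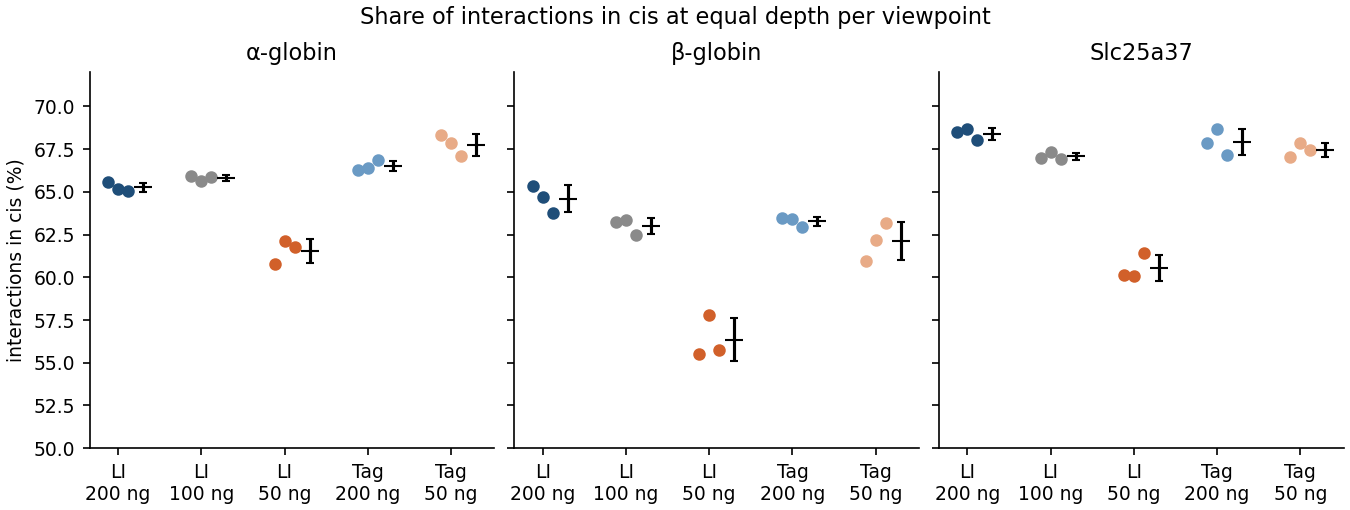
Percentage of interactions in cis for each library (points) at α-globin, β-globin and Slc25a37, thinned to the lowest 50 ng LI-Capture-C total of the viewpoint, with the mean and SD of 3 libraries beside them (black). The vertical axis runs from 50 to 72%, and the 50 ng LI-Capture-C libraries, at 55.5 to 62.1%, lie below every other library shown of their viewpoint.

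To see which distances lost interactions, the shares of 10 distance bands in cis and of the other chromosomes were tested per viewpoint on the deposited counts. 14 of 33 shares differed between the inputs with adjusted p under 0.05 (42.4%), 3 higher (9.09%) and 11 lower (33.3%) at 50 ng, by edgeR's quasi-likelihood test with Benjamini-Hochberg adjustment over all 33. The 3 that rose were the other chromosomes, once for each viewpoint. Their share went from 34.7% ± 0.32 to 38.5% ± 0.66 at α-globin (SD, n = 3 and 3, 1.11-fold, adjusted p = 3.7e-07), from 35.4% ± 0.85 to 43.6% ± 1.23 at β-globin (1.23-fold, adjusted p = 1.6e-20) and from 31.6% ± 0.37 to 39.5% ± 0.76 at Slc25a37 (1.25-fold, adjusted p = 2.6e-11). The shares of a viewpoint add up to all its interactions, so a rise in trans must be met by falls in cis. The test shared 1 estimate of the spread among all 33 shares, and these p-values rest on that. The 3 viewpoints were captured in the same 6 libraries, so that the shares are not independent and the viewpoints are not separate replications.

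The band at 5 to 20 Mb fell at all 3 viewpoints, and that at 1 to 5 Mb at α-globin and β-globin. The α-globin calls of both bands depended on which libraries were included. Differences between viewpoints were not tested. At α-globin the falls that passed lay beyond 500 kb. That at 5 to 20 Mb did not pass with DESeq2 (adjusted p = 0.0846). In edgeR's test it was lost without the 200 ng replicate 1 or 2 (adjusted p = 0.0841 and 0.116). It was also lost without the 50 ng replicate 2 or 3 (0.0906 and 0.22). That at 500 kb to 1 Mb was lost without any single 200 ng library (0.0617, 0.0822 and 0.0776) or the 50 ng replicate 3 (0.193). That at 1 to 5 Mb was lost without the 200 ng replicate 1 (0.0617) or the 50 ng replicate 3 (0.0952). The share at 500 kb to 1 Mb went from 1.46% ± 0.03 to 1.09% ± 0.19, that at 1 to 5 Mb from 4.10% ± 0.21 to 3.33% ± 0.27, that at 5 to 20 Mb from 8.18% ± 0.14 to 7.42% ± 0.52, and that beyond 20 Mb from 13.7% ± 0.10 to 12.2% ± 0.58. No α-globin band within 500 kb passed the test, and the share within 250 kb, where the globin genes and their enhancers lie, was 35.0% at both inputs (± 0.17 and ± 1.44, thinned). The same share went from 33.7% ± 0.43 to 29.5% ± 1.25 at β-globin and from 37.3% ± 0.34 to 34.4% ± 0.98 at Slc25a37, with no overlap of the groups (exact permutation p = 0.1 each). At β-globin 6 bands fell. Under 10 kb the share went from 9.63% ± 0.45 to 8.20% ± 0.46, at 25 to 50 kb, the distance of the locus control region, from 11.7% ± 0.34 to 10.6% ± 0.93, and at 1 to 5 Mb from 6.78% ± 0.06 to 5.19% ± 0.19. The bands at 50 to 100 kb, 100 to 250 kb and 5 to 20 Mb fell to 0.84, 0.776 and 0.85 times their share at 200 ng. In edgeR's test, those at 50 to 100 kb and 100 to 250 kb were lost without the 200 ng replicate 1 (adjusted p = 0.071 and 0.0595). That at 50 to 100 kb was also lost without the 50 ng replicate 2 (0.0915). That at 100 to 250 kb was also lost without the 200 ng replicate 3 (0.0527) or the 50 ng replicate 1 (0.0893). In the band at 25 to 50 kb the groups overlapped, and it did not pass with DESeq2 (adjusted p = 0.0642). In edgeR's test it did not pass without the 200 ng replicate 1 (adjusted p = 0.0617), the 50 ng replicate 1 (0.0935) or the 50 ng replicate 2 (0.0901). At Slc25a37, with fewer counts, the band at 5 to 20 Mb alone passed among those in cis, from 14.3% ± 0.77 to 10.7% ± 0.32, and that at 50 to 100 kb went from 3.38% ± 0.16 to 2.58% ± 0.77 with adjusted p = 0.0502. With the replicate number as a block, 4 of these bands did not pass, at α-globin those at 500 kb to 1 Mb (adjusted p = 0.144) and 5 to 20 Mb (0.0876), and at β-globin those at 50 to 100 kb (0.078) and 100 to 250 kb (0.0876).

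How many bands pass depends on what the share is taken of. As shares of cis interactions, a choice made after the counts were seen, only 2 of 30 bands differed (6.67%). At α-globin, interactions under 10 kb rose from 19.0% ± 0.24 to 20.9% ± 0.52 of cis (1.10-fold, adjusted p = 0.033). At Slc25a37, those at 5 to 20 Mb fell from 20.9% ± 1.02 to 17.6% ± 0.31 of cis (0.843-fold, adjusted p = 0.033). No β-globin band passed in this form, and its 25 to 50 kb band turned from 0.904-fold of all interactions to 1.04-fold of cis (adjusted p = 0.58). With TMM factors in place of totals, which shifts the median log2 change of the β-globin cis bands from -0.23 to -0.06, 6 of 33 shares passed, 4 higher and 2 lower. All 3 trans shares were among the calls in every alternative run on all 33 shares. Without the 200 ng replicate 1, 8 of 33 shares passed, and with the 200 ng libraries thinned to the median 50 ng total 7 did.

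**Figure D2:**
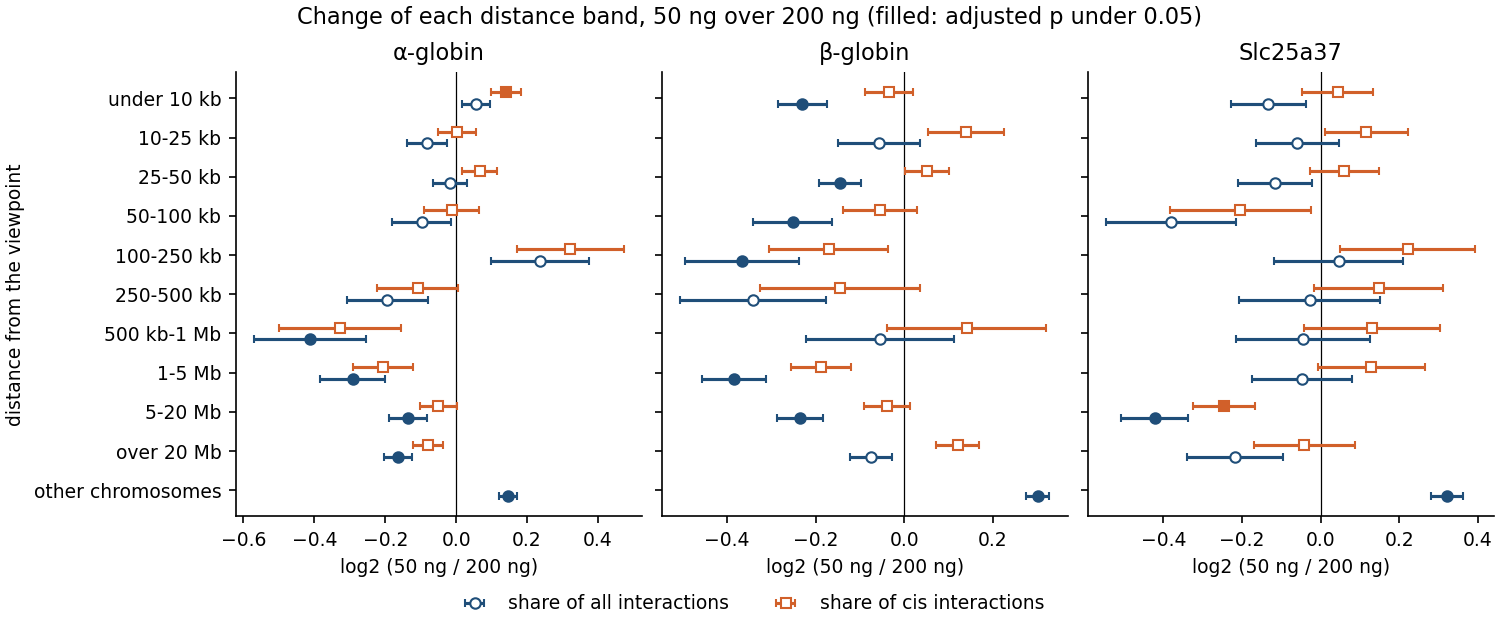
Log2 ratio of each distance band's share, 50 ng over 200 ng (horizontal axis), for α-globin, β-globin and Slc25a37, as a share of all interactions (circles) and of cis interactions (squares). Bars are standard errors of the edgeR fit and filled symbols have adjusted p under 0.05: the 3 trans shares lie right of 0, and 2 squares are filled, α-globin under 10 kb and Slc25a37 at 5 to 20 Mb.

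The steepness of the decay differed little. The slope of log10 interactions per kb on log10 distance, from 10 kb to 20 Mb on thinned counts, was -1.15, -1.16 and -1.16 at 200 ng and -1.16, -1.19 and -1.21 at 50 ng for α-globin, where the groups overlapped. The differences were -0.027 ± 0.013 at α-globin, -0.016 ± 0.0085 at β-globin and -0.014 ± 0.0066 at Slc25a37 (SE, exact permutation p = 0.2, 0.3 and 0.1, 0.3 after adjustment). At Slc25a37 the groups did not overlap, but from 25 kb to 5 Mb the sign turned (0.034, exact p = 0.2). Of all cis interactions, those within 250 kb made up 53.7% ± 0.44 at 200 ng and 56.9% ± 1.74 at 50 ng for α-globin, 52.1% ± 0.28 and 52.4% ± 2.42 for β-globin, and 54.6% ± 0.50 and 56.8% ± 0.92 for Slc25a37. The groups did not overlap at α-globin and Slc25a37 and overlapped at β-globin (exact p = 0.1 at the former 2 and 1 at β-globin). The median distance of a cis interaction was 83.0 kb ± 3.39 and 65.9 kb ± 10.7 at α-globin, 134 kb ± 9.67 and 127 kb ± 35.4 at β-globin, and 88.6 kb ± 7.15 and 60.3 kb ± 14.1 at Slc25a37, and the groups overlapped at β-globin alone of the 3.

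The highest steps of the local profile were compared in the 2 inputs, on the deposited counts without thinning. Beyond 10 kb, the highest 5 kb step at α-globin was 30 to 35 kb towards the enhancers, with 8.18% ± 0.65 of the interactions within 250 kb at 200 ng and 8.77% ± 0.84 at 50 ng. At β-globin the steps at 30 to 35 kb and 40 to 45 kb towards the locus control region were highest, with 9.08% ± 0.29 and 8.76% ± 0.59 at 200 ng and 9.46% ± 2.14 and 9.27% ± 0.70 at 50 ng. At Slc25a37, the steps at 15 to 20 kb and 35 to 40 kb on the side of higher coordinates held 6.20% ± 0.37 and 5.72% ± 0.62 at 200 ng, and 6.53% ± 1.67 and 6.69% ± 0.55 at 50 ng. The groups overlapped at each of these steps, and at the other 4 of the 9 steps taken as the 3 highest of a viewpoint.

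**Figure D3:**
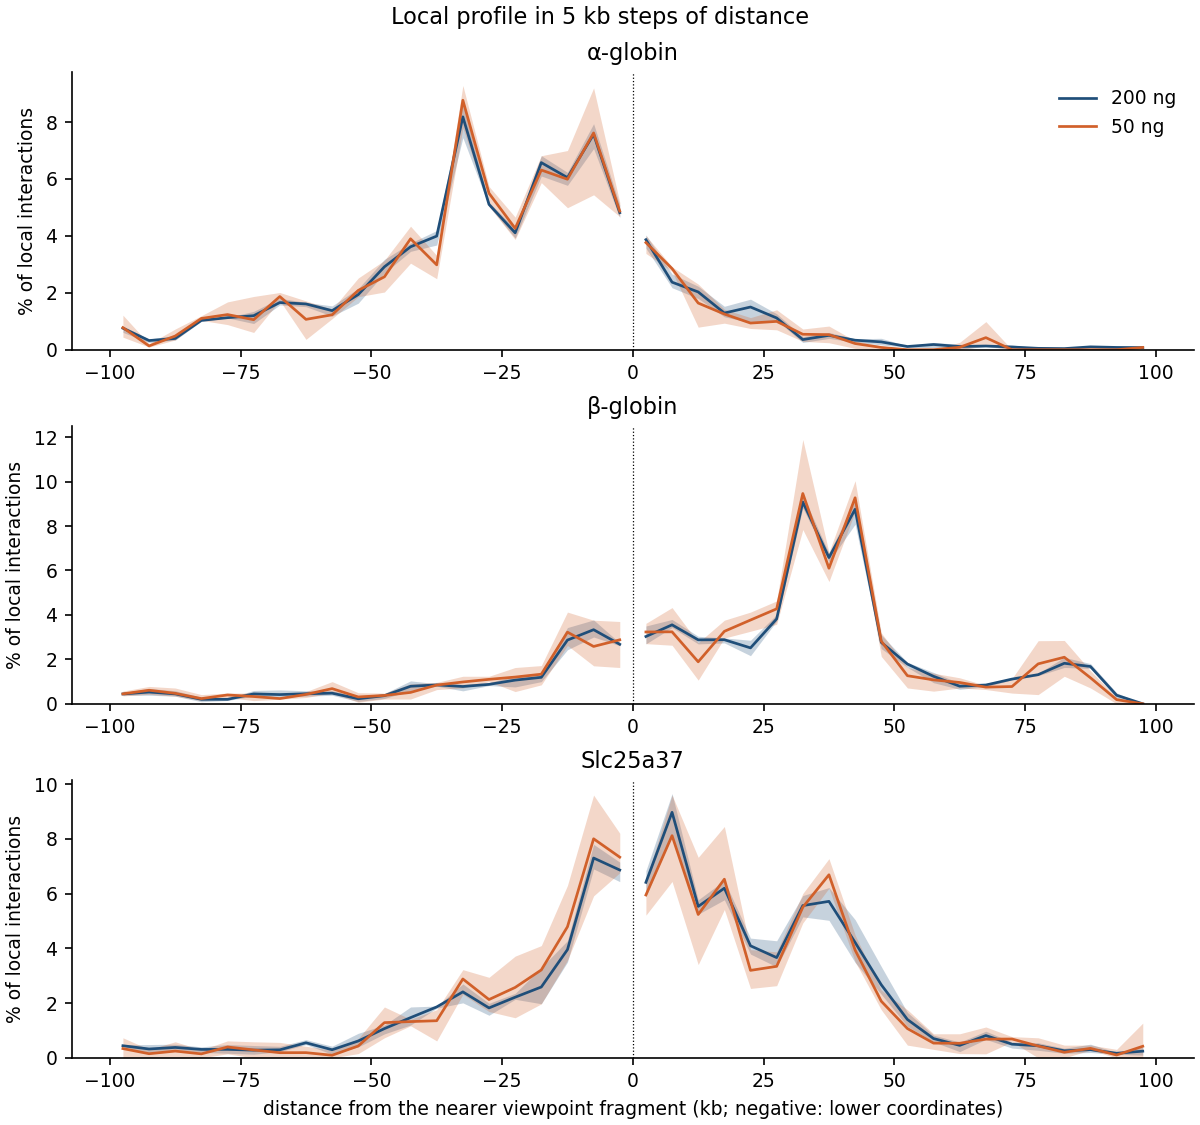
Percentage of the interactions within 250 kb per 5 kb step of distance from the nearer viewpoint fragment (vertical axis). Counts are as deposited, on the side of lower (negative) and higher coordinates, at α-globin, β-globin and Slc25a37. Lines are means of 3 libraries and bands run from the lowest to the highest library: the peak 30 to 35 kb from α-globin (8.18 and 8.77%) and those near β-globin at 30 to 35 kb (9.08 and 9.46%) and 40 to 45 kb (8.76 and 9.27%) are seen at both inputs.

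The balance of the local profile was measured as the log2 ratio of interactions 10 to 50 kb from the viewpoint on the enhancer side over those on the other side. For α-globin it was 2.47, 2.63 and 2.29 at 200 ng and 3.21, 2.64 and 2.33 at 50 ng. For β-globin it was 2.18, 2.21 and 2.08 at 200 ng and 2.21, 1.79 and 2.30 at 50 ng. For Slc25a37, with the side of lower coordinates over that of higher ones, it was -1.30, -1.01 and -1.05 at 200 ng and -1.08, -0.83 and -0.78 at 50 ng. The inputs overlapped at all 3 viewpoints. The differences were 0.26 ± 0.27, -0.06 ± 0.16 and 0.22 ± 0.13 (SE, exact permutation p = 0.4, 0.9 and 0.3), so that with these standard errors a shift of similar size in either direction was not detectable. Without the 50 ng replicate 1 the difference at α-globin was 0.02, and without the 50 ng replicate 2 that at β-globin was 0.10.

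Single restriction fragments within 250 kb were compared relative to each other, with TMM factors. At α-globin, 0 of 170 fragments (0%) with a mean count of at least 10 passed edgeR's quasi-likelihood test (14 at unadjusted p under 0.05, 2 by DESeq2), at Slc25a37 0 of 56 (0%, 6 unadjusted, 0 by DESeq2), and at β-globin 2 of 125 (1.6%, 4 by DESeq2). Both β-globin fragments lay near the promoters and fell. The fragment at chr7:110973295-110973475, 2.83 kb from the nearer promoter fragment and between the pair, held 67, 84 and 70 interactions at 200 ng and 2, 4 and 4 at 50 ng, that is 0.916% ± 0.183 and 0.234% ± 0.080 of local interactions (log2 change -1.86 ± 0.49 SE, adjusted p = 0.044). The fragment at chr7:110958540-110959282, 3.37 kb away on the side of lower coordinates, held 92, 105 and 129 against 7, 10 and 1, or 1.33% ± 0.09 and 0.419% ± 0.316 (-1.57 ± 0.42, adjusted p = 0.044). At both, every 50 ng library lay below every 200 ng library in share of local interactions. The groups did not overlap in 27 of the 125 tested β-globin fragments (21.6%). These fragments were named because they passed, so that this adds no support. No β-globin fragment passed when the 200 ng replicate 1, 2 or 3 or the 50 ng replicate 3 was left out, the first fragment also did not without the 50 ng replicate 1 (adjusted p = 0.09), and a library with 1 to 10 interactions in a fragment gives a coarse value.

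The 5 fragments with the highest mean share of local interactions over the 6 libraries, as deposited, were described for each viewpoint. At α-globin the highest was chr11:32180845-32181398, 554 bp long and 2.43 kb from the nearer promoter, with 1.71, 1.26 and 1.25% of local interactions at 200 ng and 1.63, 1.67 and 2.39% at 50 ng. The other α-globin fragments of the first 5 lay between the promoters, 2.55 to 4.63 kb away, and had means of 1.08 to 1.35% at 200 ng and 1.20 to 1.36% at 50 ng. At β-globin the highest was chr7:110974331-110974901 between the promoters, with 1.32, 1.81 and 1.33% at 200 ng and 2.48, 2.61 and 1.35% at 50 ng. The next was chr7:111008142-111009073, 32.4 kb towards the locus control region, with 1.49, 1.12 and 1.29% and then 2.27, 1.51 and 1.57%, all 3 above the 200 ng libraries but with adjusted p = 0.35. The other 3 β-globin fragments of the first 5 lay 33.9 to 37.5 kb away on that side. At Slc25a37 the highest was chr14:69900630-69901406, 2.26 kb away, with 2.11, 1.63 and 2.07% and then 1.41, 2.01 and 1.76%. None of these 15 fragments passed the test, their adjusted p being 0.35 to 1.00. Of the 10 highest fragments at 200 ng, 8 were among the 10 highest at 50 ng at α-globin, 5 at β-globin and 6 at Slc25a37. These ranks are of deposited counts at unequal depth, and the overlap that sampling at 50 ng alone would give was not tested. At equal depth, the 10 highest fragments of each library held 12.9% ± 0.37 of local interactions at 200 ng and 14.7% ± 0.51 at 50 ng at α-globin. The values were 13.5% ± 0.44 and 15.8% ± 0.64 at β-globin, and 15.1% ± 0.40 and 17.4% ± 0.56 at Slc25a37. The groups did not overlap (exact permutation p = 0.1 each, the smallest possible). The thinning here was count by count, which splits the frequent counts of 2 at 200 ng. Whether this difference comes from the manner of thinning was not tested.

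Summed in 5 kb windows within 1 Mb, 0 of 57 windows (0%) passed edgeR's test at α-globin (2 unadjusted, 0 by DESeq2), 0 of 27 (0%) at Slc25a37 (3 unadjusted, 0 by DESeq2) and 1 of 52 at β-globin (1.92%). This window, chr7:110995001-111000000, lies 21.2 kb from the nearer β-globin promoter, on the side of the locus control region but nearer than its peaks. It held 179, 171 and 181 interactions at 200 ng and 50, 56 and 52 at 50 ng, or 2.19% ± 0.23 and 3.70% ± 0.15 of local interactions (log2 change 0.80 ± 0.18 SE, adjusted p = 0.00545). All 3 libraries of 50 ng lay above all 3 of 200 ng in this share, which adds no support, as the window was named because it passed. With library totals in place of TMM factors, with 10 kb windows, and without the 200 ng replicate 2, the 200 ng replicate 3 or the 50 ng replicate 1, 0 windows passed. With no filter on low counts, the log2 change of the named window was 0.38, and it did not pass edgeR's test (adjusted p = 0.399).

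The spread of trans interactions over the chromosomes was tested in the same way. Of 57 shares of single chromosomes in the trans interactions, 0 differed (0%) by edgeR's quasi-likelihood test (7 at unadjusted p under 0.05, and 0 adjusted and 4 unadjusted by DESeq2), and in 15.8% the groups did not overlap. At α-globin, chromosome 17 had the highest share at 200 ng, 7.04% ± 0.32, against 6.72% ± 0.54 at 50 ng, and chromosome X the lowest, 2.28% ± 0.34 against 2.98% ± 0.18. At β-globin, chromosome 5 had 7.29% ± 0.29 and 7.02% ± 0.57, and chromosome 19 had 2.26% ± 0.50 and 1.95% ± 0.17. At Slc25a37, chromosome 11 had 8.44% ± 1.40 and 10.0% ± 0.86, and chromosome X 2.09% ± 0.31 and 3.13% ± 0.74. In the tables, fragments with trans counts carry positions that end at the length of the viewpoint's chromosome (near 121.8 Mb for α-globin), whereas fragments without counts reach 197.1 Mb. Of the positions of counted trans fragments, 29.3% at α-globin, 22.9% at β-globin and 15.5% at Slc25a37 were those of a listed fragment of the viewpoint's chromosome, and 0% were those of an uncounted fragment of their own chromosome. Which trans fragment a row stands for is thus uncertain, as is what a distinct trans fragment is below, and the chromosome shares rest on the chromosome names alone. At β-globin, 19 trans rows longer than 100 kb held 1830 of the 32122 trans interactions of the 6 libraries, and without them the difference in cis percentage was -8.11.

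Pearson correlations between replicate libraries were lower at 50 ng than at 200 ng. As deposited, the mean Pearson r between replicate libraries over fragments of the viewpoint's chromosome was 0.917 at 200 ng and 0.690 at 50 ng for α-globin, 0.899 and 0.605 for β-globin, and 0.852 and 0.485 for Slc25a37. At equal depth the values were 0.805 and 0.683, 0.758 and 0.600, and 0.636 and 0.480 (exact permutation p = 0.1 at each viewpoint, the smallest possible). The difference was thus -0.227, -0.294 and -0.367 as deposited and -0.121, -0.159 and -0.156 at equal depth. Over 5 kb windows at equal depth r was 0.976 and 0.957, 0.967 and 0.927, and 0.943 and 0.890. Between a 200 ng and a 50 ng library, r was 0.731 on average at α-globin, 0.644 at β-globin and 0.527 at Slc25a37, in each case between the values within the 2 inputs. With ranks in place of values the order turned, with Spearman correlations of 0.160 at 200 ng and 0.314 at 50 ng for α-globin. The values were 0.172 and 0.302 for β-globin, and 0.209 and 0.366 for Slc25a37, over profiles in which most fragments have a count of 0. Between a 200 ng and a 50 ng library they were 0.163, 0.166 and 0.208, near those within 200 ng. The 50 ng libraries were thus more alike in ranks to each other than to the 200 ng ones, and the cause was not tested.

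**Figure D4:**
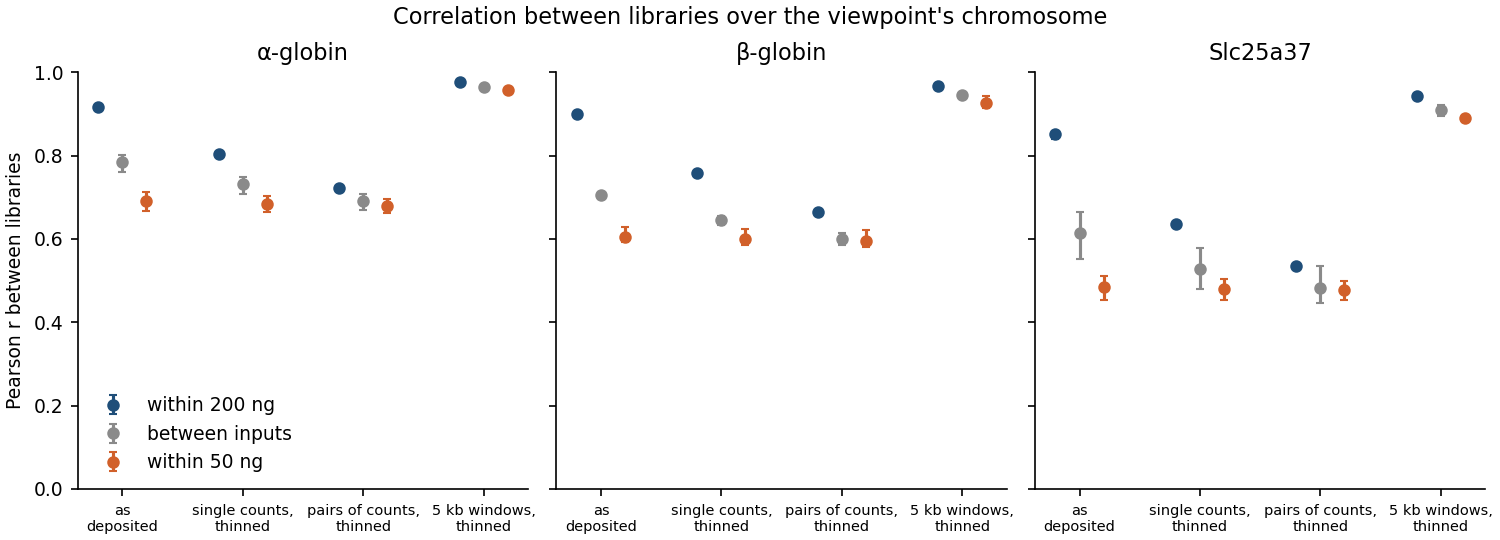
Pearson r between libraries (vertical axis) over the fragments of the viewpoint's chromosome, within 200 ng, within 50 ng and between the inputs, with the counts as deposited, thinned one by one, thinned in pairs, and summed in 5 kb windows after thinning. Points are means over pairs of libraries and bars run from the lowest to the highest pair: the gap between inputs at α-globin goes from -0.227 as deposited to -0.121 with counts thinned one by one and -0.043 with pairs.

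How often the same fragment was seen again also differed, and here the manner of thinning decided the size. At equal depth, the 200 ng libraries had 3263 ± 59 distinct fragments at α-globin against 2103 ± 102 at 50 ng, 2946 ± 49 against 2160 ± 82 at β-globin, and 1367 ± 12 against 1070 ± 30 at Slc25a37 (SD, n = 3 and 3, exact permutation p = 0.1 each). With equal numbers of trans interactions, each trans fragment was seen 1.21 ± 0.02 times at 200 ng and 1.80 ± 0.07 times at 50 ng at α-globin, 1.25 ± 0.02 and 1.65 ± 0.06 times at β-globin, and 1.10 ± 0.01 and 1.38 ± 0.04 times at Slc25a37. In none of these did the groups overlap. In cis, the distinct fragments numbered 1695 ± 25.1 and 955 ± 48.0 at α-globin, 1603 ± 23.1 and 945 ± 46.8 at β-globin, and 811 ± 4.23 and 526 ± 10.6 at Slc25a37.

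A further measure bears on how to thin. Among sparse fragments (in trans or beyond 1 Mb), the 200 ng libraries as deposited had 1.36 ± 0.06 fragments with a count of 2 for each fragment with a count of 1 at α-globin, 0.892 ± 0.037 at β-globin and 0.429 ± 0.071 at Slc25a37. The 50 ng libraries had 0.564 ± 0.032, 0.387 ± 0.006 and 0.272 ± 0.016. Thinned count by count, the 200 ng libraries fell to 0.182, 0.150 and 0.0812, below the 50 ng libraries, and thinned with 2 counts of a fragment kept together they came to 2.09, 1.36 and 0.495, above them. Neither thinning thus turns the 200 ng libraries into the pattern of the 50 ng ones. With pairs kept together, the difference in distinct fragments shrank from -1160 to -185 at α-globin and from -297 to -27.8 at Slc25a37, and turned from -786 to 32.9 at β-globin. The difference in trans interactions per fragment shrank from 0.588 to 0.061 and from 0.278 to 0.040, and turned from 0.399 to -0.054 at β-globin. The difference in r shrank to -0.043, -0.070 and -0.058. The differences in cis percentage, -3.69, -8.26 and -7.85, moved by less than 1 SD. Neither way of thinning is expected to move this share, so that this is no check of it.

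**Figure D5:**
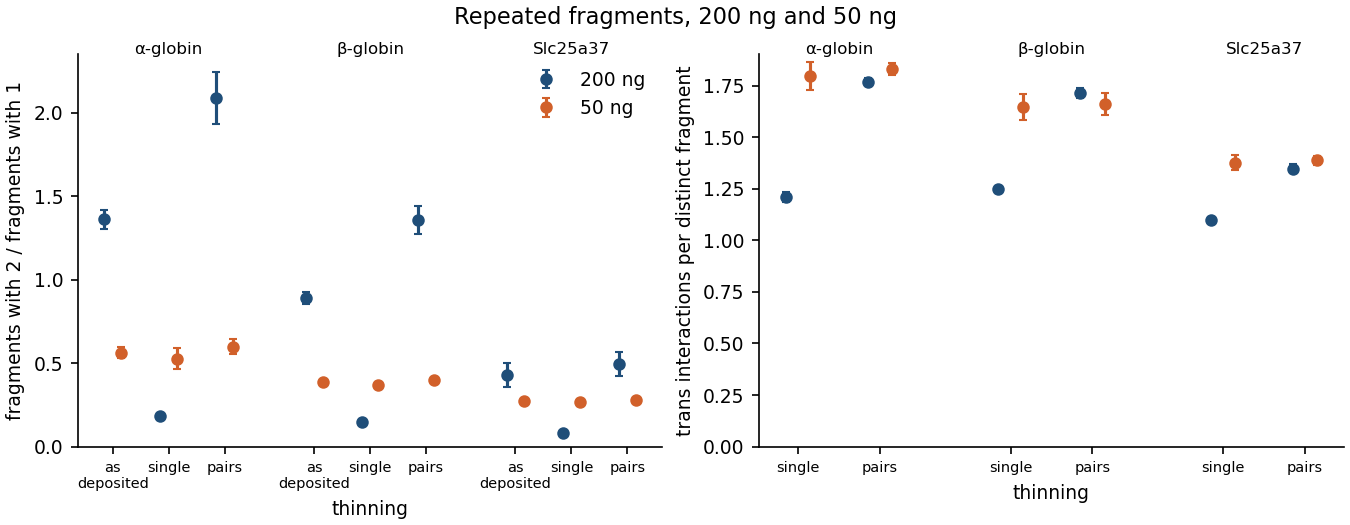
Left, number of sparse fragments with a count of 2 over those with a count of 1, and right, trans interactions per distinct trans fragment at equal trans depth, at 200 ng and 50 ng for each viewpoint, with no thinning, thinning of single counts and thinning of pairs. Points are means of 3 libraries with SD: at α-globin the ratio at 200 ng goes from 1.36 as deposited to 0.182 or 2.09, against 0.564 at 50 ng as deposited.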

How the data were processed

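Per the submitters' processing notes, reads were handled with Trim Galore and Bowtie and placed on mm9, with versions not given in the sources used here. The authors deposited counts of unique interactions per DpnII fragment, library and viewpoint, without normalization. Read pairs with identical ends, or ends differing by 1 or 2 positions, had been removed as duplicates, which sets how many interactions count as unique. All columns of the 3 low-input tables were mapped to samples by their names, and the other deposited tables were not used.

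The members, lists and tests were chosen with earlier results of these data known. Distances are from the nearer viewpoint fragment. Thinning drew counts without replacement (100 seeded draws, Python 3.11.15, NumPy 2.4.6). Values per library were tested with exact two-sided permutation tests, with Benjamini-Hochberg adjustment over the 3 viewpoints. Bands, chromosomes, fragments and windows were tested on the deposited counts with edgeR 4.0.16 in R 4.3.3 (quasi-likelihood test), with offsets of viewpoint totals, trans totals or TMM factors, at adjusted p under 0.05. DESeq2 1.42.0 was an alternative. The procedures were tested on simulated data. For the count tests, the simulated spread between libraries (dispersion) was 0.05, against 4.5e-04 estimated for the bands. The simulation therefore does not show how the test behaves for small changes of the bands. The features named are all bands, the 5 highest local fragments per viewpoint, up to 3 called fragments or windows in each direction, and the chromosomes with the highest and lowest share. Depth ran from 1900 to 33512 interactions per library.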

Additional observations from a re-analysis of the deposited data

Results flagged for a closer look

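The difference in cis percentage between 50 ng and 200 ng differed between the 2 protocols at β-globin and Slc25a37. LI-Capture-C minus Tag-Capture-C, it was -7.09 percentage points at β-globin and -7.42 at Slc25a37, with exact permutation p of 0.015 and 0.03 after adjustment over 3 viewpoints. At α-globin it was -4.96 and did not pass (exact permutation p = 0.1, also after adjustment). With differences taken within replicate numbers, no viewpoint passed (exact permutation p = 0.1, the smallest possible). Without the Tag-Capture-C 200 ng replicate 3, the adjusted p at Slc25a37 was 0.0525 (exact permutation test). All 3 LI-Capture-C libraries of 50 ng lay below all 3 of 200 ng at every viewpoint. The labels name no sequencing run or other batch, and its part in the result was not tested. Single libraries could not be checked for standing apart in this way, since groups of 3 are too small for it.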

How the results depend on the processing

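The cis percentage kept its direction at each viewpoint under every alternative run. The exact permutation p was 0.1, or 0.25 with the replicate block, each the smallest possible. Alternatives that change the thinning alone are not expected to move this share. Leaving out 1 library gave -3.98 to -3.33 percentage points at α-globin, -8.97 to -7.84 at β-globin and -8.31 to -7.63 at Slc25a37. The difference from Tag-Capture-C ran from -7.81 to -6.54 at β-globin and from -7.87 to -7.06 at Slc25a37 with 1 library left out. With replicate numbers as a block its values, -7.09 and -7.42, had exact permutation p = 0.1, the smallest possible. Whether the replicate numbers pair the libraries differed by viewpoint: deviations of same-numbered libraries correlated at 0.03 to 0.06 at α-globin and -0.01 to 0.17 at β-globin, but at 0.13 to 0.39 at Slc25a37, and 0, 1 and 3 of 3 correlated best with their own number. With the block, 10 bands and 0 β-globin fragments passed, and no Slc25a37 band changed its call.

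These differences reversed, and the cause was not tested: the decay slope at β-globin from 50 kb to the chromosome end (0.018) and at Slc25a37 from 25 kb to 5 Mb (0.034), and replicate r with ranks (0.154, 0.130 and 0.157). Thinned in pairs, an alternative chosen after seeing the data, so did distinct fragments (32.9) and trans interactions per fragment (-0.054) at β-globin. The log2 change of the β-globin band at 25 to 50 kb became 0.024 with TMM and 0.051 as a share of cis. The side-ratio difference at β-globin ran from -0.16 to 0.10 with 1 library left out.

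The number of bands passing was 6 with TMM, 7 after thinning to the median total, 2 as shares of cis and 8 to 15 with 1 library left out. Fragments passing at α-globin numbered 2 with DESeq2 and 1 with no filter, and at β-globin 4 with DESeq2, 1 after thinning and 0 to 3 with 1 library left out. At Slc25a37 they numbered 0 to 1. Windows passing at β-globin numbered 0 with library totals or 10 kb windows, 6 with no filter (the named window not among them) and 0 to 2 with 1 library left out. At Slc25a37 they numbered 2 with no filter, 1 with 10 kb windows and 0 to 1 with 1 library left out, and at α-globin 0 to 1. Chromosome shares passing numbered 1 after thinning and 0 to 1 with 1 library left out. At 1900 to 6420 interactions per 50 ng library, single fragments hold few counts, and changes in them were mostly not detectable at this depth.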
